A study of Rattus norvegicus with 10 samples.

Results

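The Slco genes encode organic anion transporting polypeptides (OATPs), and 8 of them were followed here in the kidneys of male and female PCK rats. The members were the rows of the gene table with the symbols *Slco1a1*, *Slco1a4*, *Slco1a6*, *Slco2a1*, *Slco2b1*, *Slco3a1*, *Slco4a1* and *Slco4c1*, which made 8 of the 16 Slco rows and 8 of 32545 rows in all. They were chosen by name with their FPKM values in both sexes, and the female minus male difference, already known, so their sex differences are a description, and counts of members past a threshold stand beside the share of all genes without serving as a test. The PCK rat is a spontaneous model of autosomal recessive polycystic kidney disease with a mutation in *Pkhd1*, and its kidney cysts arise mainly from the collecting duct. All 10 rats, 5 male and 5 female, were PCK animals with no treatment named in the labels, so both groups carried the mutation and no rat without it entered the comparison. The series labels give an age of 12 to 14 weeks and the study's methods 10 to 12 weeks, and the labels name the tissue as kidney where the methods name renal cortex. The rats were littermates from 2 litters, and litter membership of single rats did not enter the fits. RNA was sequenced from bulk tissue after selection of polyadenylated transcripts, and levels are in FPKM, fragments per kilobase of transcript scaled to sequencing depth, a scale that divides by gene length and so allows genes to be compared with each other.

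OATPs are membrane proteins that carry bulky, mostly anionic molecules into cells without using ATP directly. Their cargo includes bile acids, steroid sulfates and glucuronides, thyroid hormones, prostaglandins and many drugs. In the kidney they work beside the Slc22 carriers and the ABC efflux pumps of the proximal tubule, which pass organic anions from blood to urine. *Slco1a1* encodes Oatp1a1, a transporter of steroid conjugates and bile acids found in the hepatocyte and in the brush border of the straight proximal tubule, and its renal level in rodents is known to depend on androgens. *Slco2a1* encodes the prostaglandin transporter, which takes up prostaglandins before their breakdown, and *Slco4c1* encodes a basolateral carrier of the proximal tubule that handles digoxin and thyroid hormone.

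Read totals over genes were 13912569 to 20285911 per library in males and 14963924 to 19556707 in females, and 18018 to 18639 genes had a read. Mitochondrial genes took 14.3% to 26.8% of these reads, the highest share being that of female 2. The sex labels were borne out by Y-linked transcripts, since *Eif2s3y* stood at 34.2 to 46.5 FPKM in males but at no more than 0.287 FPKM in females. The tissue label was checked with 9 proximal tubule markers, all above 1 FPKM, whose summed level was 2111 to 4468 FPKM in males against 2735 to 5170 FPKM in females.

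All 8 members matched a promoter window of the RefSeq annotation of the rat genome build GRCr8, each running from 250 bases before to 50 bases after the annotated start. A set of 4 windows is printed 5′ to 3′ on the strand of the gene, for the pair *Slco1a1* and *Slco1a4*, whose windows were the most alike but whose levels lay far apart in males, and for *Slco1a6* and *Slco4c1*, whose levels moved together over the rats. Capitals mark matches to AGAACA, the half-site of the androgen receptor and of related steroid receptors, or to TGACNNNGC, the core of the antioxidant response element, each on either strand.
Slco1a1 (chr4:176681943-176682242, minus strand): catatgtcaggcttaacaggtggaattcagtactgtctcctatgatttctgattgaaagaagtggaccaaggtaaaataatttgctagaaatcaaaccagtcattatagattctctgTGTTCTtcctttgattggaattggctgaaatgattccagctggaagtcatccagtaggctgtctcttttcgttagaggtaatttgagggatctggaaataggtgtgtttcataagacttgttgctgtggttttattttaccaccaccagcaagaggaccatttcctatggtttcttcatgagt
Slco1a4 (chr4:176495797-176496096, minus strand): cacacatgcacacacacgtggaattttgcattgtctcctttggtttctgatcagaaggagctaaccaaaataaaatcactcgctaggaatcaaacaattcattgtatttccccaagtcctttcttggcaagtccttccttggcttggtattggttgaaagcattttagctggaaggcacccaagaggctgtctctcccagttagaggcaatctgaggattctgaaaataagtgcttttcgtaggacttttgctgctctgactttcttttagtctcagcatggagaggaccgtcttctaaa
Slco1a6 (chr4:176838983-176839282, minus strand): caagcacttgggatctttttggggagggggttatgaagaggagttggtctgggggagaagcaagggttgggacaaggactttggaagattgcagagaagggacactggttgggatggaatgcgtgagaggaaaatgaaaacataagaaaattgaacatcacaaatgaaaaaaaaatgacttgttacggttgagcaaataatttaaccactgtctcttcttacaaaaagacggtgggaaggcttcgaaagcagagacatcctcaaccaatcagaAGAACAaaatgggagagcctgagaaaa
Slco4c1 (chr9:104676413-104676712, minus strand): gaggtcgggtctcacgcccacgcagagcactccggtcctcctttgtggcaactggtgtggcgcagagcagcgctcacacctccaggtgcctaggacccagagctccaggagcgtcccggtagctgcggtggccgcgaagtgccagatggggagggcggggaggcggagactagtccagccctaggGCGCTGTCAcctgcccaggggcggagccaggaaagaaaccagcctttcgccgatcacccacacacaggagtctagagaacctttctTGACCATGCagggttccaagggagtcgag

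The windows of *Slco1a1* and *Slco1a4* were identical at 206 of 283 aligned bases, or 72.8%. Over the 36 pairs aligned, which took in the neighbor annotated as *Slco1a3*, the next closest pair was *Slco1a3* with *Slco1a6* at 59.4%. AGAACA occurred once in the *Slco1a1* window, 133 bases before the start on the opposite strand, and once in that of *Slco1a6*, 24 bases after the start. It was present in 20.7% of all 33469 windows of this length. TGACNNNGC occurred in the *Slco4c1* window 65 bases before and 22 bases after the start, and in 12.1% of all windows. The STAT5 site TTCNNNGAA was found only in the *Slco2b1* window among the members, 78 bases before the start, against 8.87% of all windows. The HNF1 half-site GTTAAT was in none of the member windows and in 7.45% of all windows. These 4 motifs were searched on both strands, and a match describes letters in the window only.

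*Slco1a6* was the most abundant member in both sexes, at 92.7 ± 54.3 FPKM in males against 87.5 ± 41.3 FPKM in females (SD, n = 5 each). In males *Slco1a1* came next, every male holding less of it than of *Slco1a6*, although the ranges of both genes overlapped over the rats. *Slco2b1*, *Slco3a1*, *Slco2a1* and *Slco4c1* followed, with neighboring ranges that overlapped, and *Slco4a1* stood below *Slco4c1* in 5 of 5 males, with *Slco1a4* last. In females the order was *Slco1a6*, *Slco2a1*, *Slco3a1*, *Slco2b1*, *Slco4c1*, *Slco4a1*, *Slco1a4* and *Slco1a1*. There *Slco2a1* lay above *Slco3a1* in 5 of 5 rats without overlap, whereas *Slco2b1* exceeded *Slco4c1* in only 2 of 5. By mean level *Slco1a1* thus held the second place of 8 in males and the last place in females. There *Slco1a4* exceeded it in 4 of 5 rats, with ranges that overlapped.

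The summed level of the 8 members was 162.8 ± 63.7 FPKM in males, with a range of 92.0 to 226.3 FPKM. In females it was 123.4 ± 42.6 FPKM, with a range of 73.0 to 173.3 FPKM, so the groups overlapped. *Slco1a6* made up 52.9 ± 13.1% of the sum in males and 67.9 ± 11.5% in females. *Slco1a1* made up 21.9 ± 4.39% in males and 0.0731 ± 0.0880% in females. The highest share of any other member in a rat was 13.8%, that of *Slco2a1* in 1 female.

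**Figure D1:**
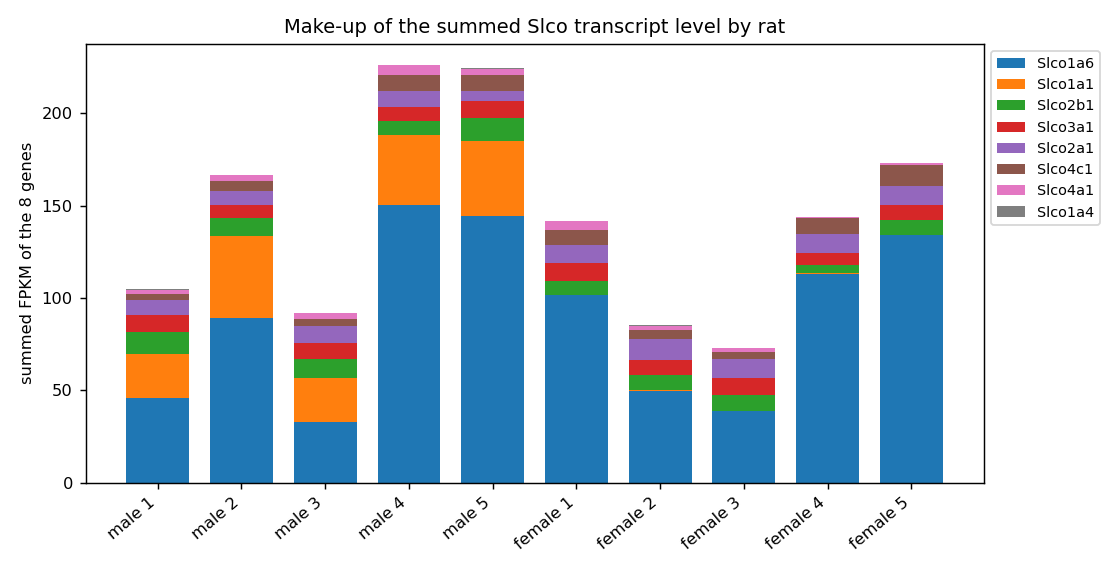
Summed FPKM of the 8 Slco members (vertical axis) in each of the 5 male and 5 female rats, with 1 stacked bar per rat and 1 color per gene. *Slco1a6* forms the largest block in every rat, and the *Slco1a1* block is present in the 5 males only at this scale.

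The sexes were compared with limma over all tested genes, with Benjamini-Hochberg adjusted p. Of the 8 members, 1 passed both an adjusted p of 0.05 and a log2 difference of 1, namely *Slco1a1*, where 1.32% of the 17631 tested genes did so, 0.618% higher and 0.698% lower in females. The adjusted p alone was passed by 1 of 8 members and by 2.4% of tested genes (1.26% higher and 1.14% lower). Male and female ranges lay apart for 2 of 8 members, *Slco1a1* and *Slco2a1*, and for 5.1% of tested genes, 2.5% with the females above and 2.6% with them below. The median log2 difference was −0.13 over the members and −0.01 over all tested genes. These counts were known in part when the members were picked, and nothing is read from them.

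**Figure D2:**
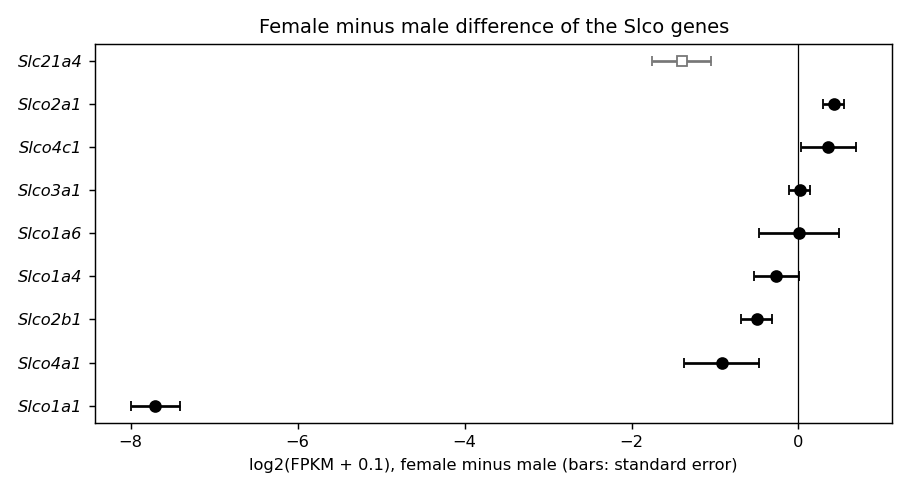
Female minus male difference in log2(FPKM + 0.1) (horizontal axis) of the 8 Slco members (filled circles) and of *Slc21a4* (open square), with standard errors as bars. *Slc21a4* is a related gene beside *Slco1a1* that is no member. *Slco1a1* stands at −7.70, *Slc21a4* at −1.40, and the other 7 members between −0.92 and 0.42.

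*Slco1a1* was nearly absent from the female kidneys. The gene, ENSRNOG00000036984, lies on the minus strand of chromosome 4 at 176158640 to 176231344 in build Rnor_6.0, the build of the gene table. In males 1 to 5 it measured 23.98, 43.9, 23.6, 38.0 and 40.3 FPKM. In females 1 to 5 it measured 0.0265, 0.189, 0.0527, 0.0754 and 0 FPKM. Every male was above every female, and the highest male value was 1.86 times the lowest. Behind these values were 766 to 1836 reads in each male library, and 1, 6, 2, 3 and 0 reads in the female ones. Pooled by sex, 6551 male reads stood against 12 female reads. Per read counted on genes this was a ratio of 556, with an exact 95% interval of 318 to 1076 that covers counting error only. Mean levels were 33.9 ± 9.50 and 0.0688 ± 0.0731 FPKM, and the female minus male difference on the log2(FPKM + 0.1) scale was −7.70 with a standard error of 0.29. The pseudocount of 0.1 FPKM sets the size of that difference, which was −4.99 with a pseudocount of 1 and −9.30 with 0.01. In bulk tissue, fewer cells of a type and less RNA per cell cannot be told apart.

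**Figure D3:**
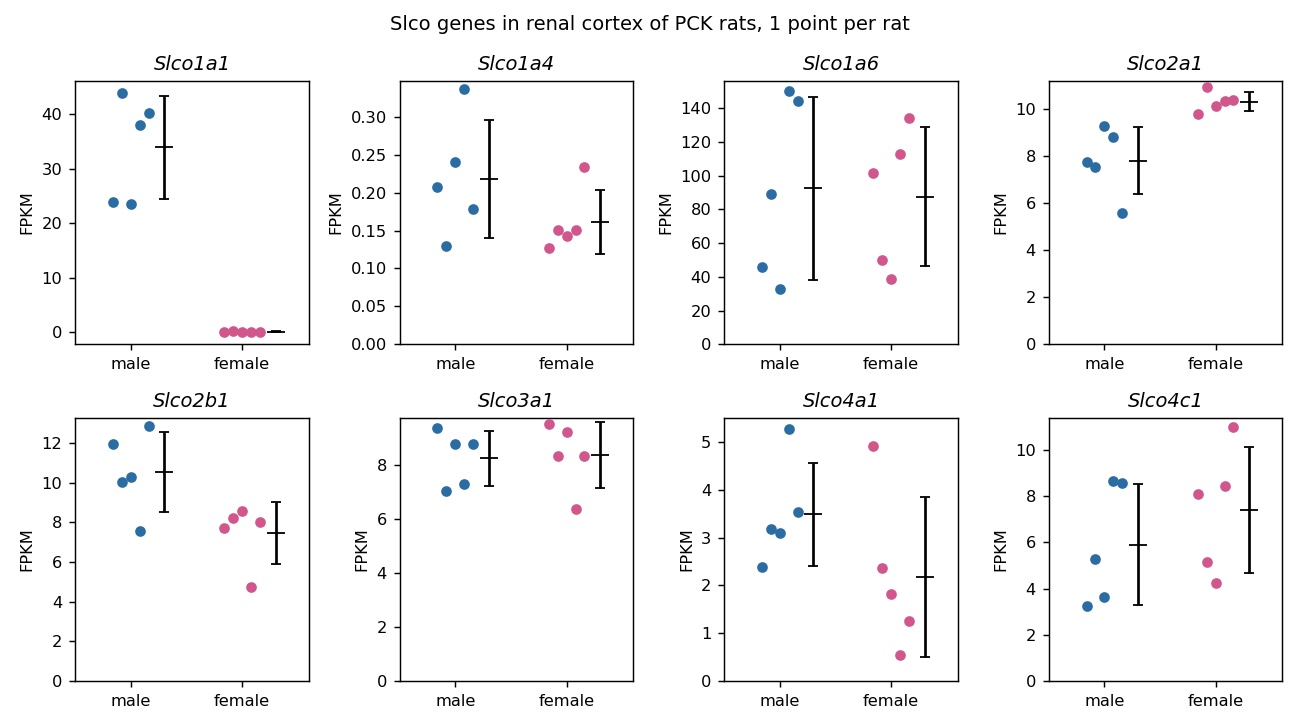
FPKM (vertical axes, linear, different for each gene) of the 8 Slco members in 5 male (blue) and 5 female (pink) rats, 1 point per rat, with the mean and SD in black to the right of each group. Males and females do not overlap for *Slco1a1*, where all females are under 0.2 FPKM, nor for *Slco2a1*, where the females lie above the males.

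Levels of the other straight proximal tubule genes were read beside *Slco1a1*. Of the 5 markers fixed for this segment 4 were in the table, none of them at 0, and their sum was 1031 to 2427 FPKM in males against 629 to 1421 FPKM in females. *Kap*, an androgen-regulated protein of this segment in rodents, made up much of the male sum and fell from 1258 ± 439 to 245 ± 93.5 FPKM (limma adjusted p = 0.00222). *Slc5a1*, the SGLT1 glucose carrier, rose from 12.9 ± 1.79 to 21.9 ± 5.68 FPKM (limma adjusted p = 0.0353). *Slc7a13*, an aspartate and glutamate carrier of this segment, was at 361 ± 208 FPKM in males against 695 ± 300 FPKM in females (limma adjusted p = 0.312). *Acsm3*, a medium-chain acyl-CoA ligase, was at 74.9 ± 18.9 and 56.1 ± 9.87 FPKM (limma adjusted p = 0.334). The part of this segment's share of the tissue in the *Slco1a1* values was not tested.

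*Slco1a6*, a kidney-expressed OATP that lies on the same chromosome 4 strand at 176345671 to 176381477, differed more between rats of one sex than between the sexes. Males 1 to 5 had 45.8, 89.4, 33.1, 150.4 and 144.6 FPKM. The female values were 101.5, 49.9, 38.8, 113.2 and 134.1 FPKM in the same order. Males 1 and 3 and females 2 and 3 were low and the rest were high, and the sexes overlapped over nearly their whole range. The female minus male difference was 0.00 on the log2 scale with a standard error of 0.48. The highest male value was 4.55 times the lowest, and the highest female value 3.46 times the lowest, with at least 1181 reads in every library.

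*Slco1a4*, which encodes a carrier of bile acids and digoxin best known from liver and the blood-brain barrier, was close to the lower edge of measurement. Its gene lies at 175969549 to 176026163 on chromosome 4, again on the minus strand. The males had 0.207, 0.129, 0.240, 0.337 and 0.178 FPKM. The females had 0.127, 0.151, 0.142, 0.151 and 0.234 FPKM, inside the spread of the males but for 1 value just under it. These levels rested on 9 to 26 reads per male library and 8 to 14 per female library. The difference was −0.27 on the log2 scale with a standard error of 0.27, and it was −0.14 without male 4, −0.07 with a pseudocount of 1 and −0.12 after quantile normalization. *Slco1a1*, *Slco1a4*, *Slco1a6* and the gene between them are related in sequence, and how reads that matched several of them were counted is not given in the sources used here, so their split is uncertain.

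Between *Slco1a1* and *Slco1a6* the table held *Slc21a4*, at 176255603 to 176295195 on the same strand, 24259 bases from *Slco1a1* and 50476 bases from *Slco1a6*. RefSeq lists this symbol as an older name of *Slco1a3*, the kidney-specific carrier first described as OAT-K1 and OAT-K2, so it belongs to the family without bearing its symbol. Males 1 to 5 had 83.1, 123, 67.4, 164 and 199 FPKM. Females 1 to 5 had 62.3, 31.6, 24.5, 54.2 and 67.2 FPKM. The lowest male, at 67.4 FPKM, lay just above the highest female. Mean levels were 127 ± 54.8 and 47.9 ± 18.9 FPKM, a log2 difference of −1.40 with a standard error of 0.35 that did not pass at limma's Benjamini-Hochberg adjusted p = 0.0709. Over 20 alternative settings the adjusted p ran from 0.0316 to 0.146, and it passed 0.05 in 2 of them.

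*Slc21a4* and *Slco1a6* ranked the rats alike at the low end within each sex, males 3 and 1 and females 3 and 2 being lowest for both. The ratio of *Slc21a4* to *Slco1a6* was 1.82, 1.38, 2.04, 1.09 and 1.37 in males 1 to 5. It was 0.614, 0.633, 0.632, 0.479 and 0.501 in females 1 to 5. Every male therefore held more *Slc21a4* than *Slco1a6* and every female held less. The ratio was examined after both genes' values had been seen and was not tested.

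Beyond these 4 genes the cluster was nearly silent. *Slco1a2*, 64381 bases beyond *Slco1a6*, had 1 to 5 reads per male library and 1 to 6 per female library. In RefSeq its symbol is an older name of more than 1 rat gene, so the row is known here by its identifier ENSRNOG00000031249. *Slco1b2*, the liver-type bile acid and drug carrier 87781 bases from *Slco1a4*, had 3, 3, 1, 14 and 7 reads in males 1 to 5 and 0 in every female, where a count of 0 allows up to 3 reads per library. *Slco1c1*, the thyroxine carrier of the blood-brain barrier, was listed at 0 in all 10 libraries. The hepatocyte markers *Alb* and *Ahsg* were at no more than 0.0546 and 0.126 FPKM in any library. The sum of all 6 hepatocyte markers, none of them at 0 throughout, was 78.4 to 275.8 FPKM in males against 45.4 to 106.0 FPKM in females and came mostly from *Tf*. *Serpina1*, another of the 6, was highest in males 4 and 5, at 1.88 and 1.33 FPKM, as *Slco1b2* was. *Fgb*, also of the 6, was at 6.63 ± 4.36 FPKM in males against 15.3 ± 8.24 FPKM in females, the other way round. The part of such transcripts in the *Slco1b2* reads was not tested.

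**Figure D4:**
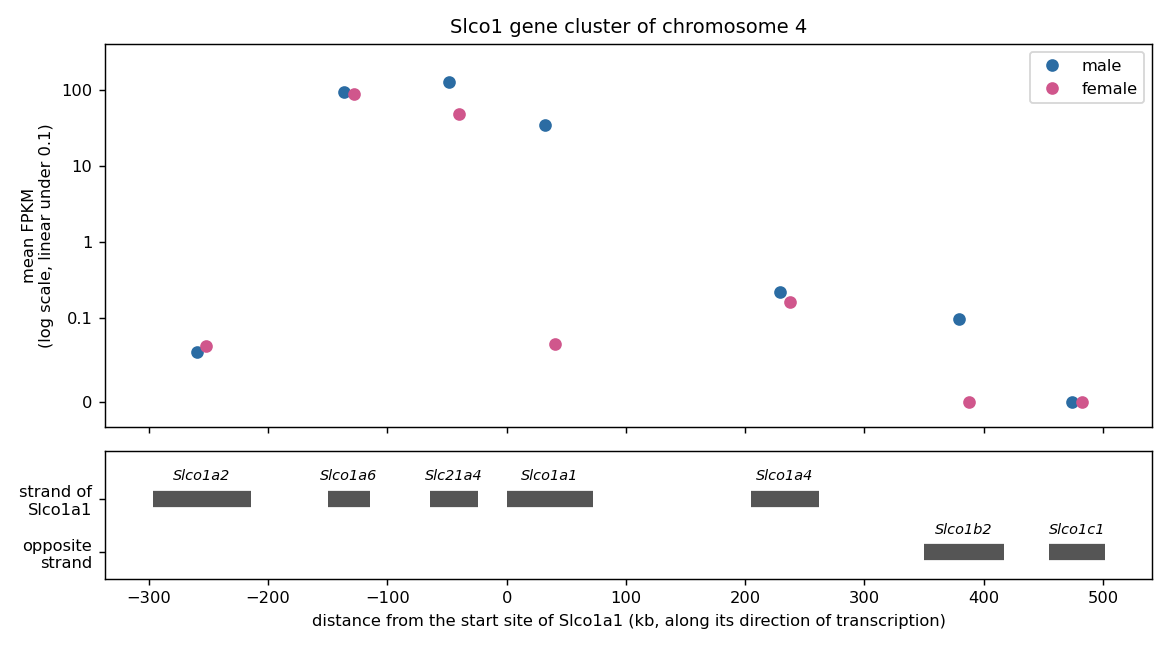
Mean FPKM of males (blue, n = 5) and females (pink, n = 5) for the genes of the Slco1 cluster (upper panel, log scale that turns linear under 0.1 FPKM), placed by distance in kb from the start of *Slco1a1*, with gene extents by strand in the lower panel. The sexes stand far apart at *Slco1a1* (33.9 and 0.0688 FPKM), apart at *Slc21a4* (127 and 47.9 FPKM) and together at *Slco1a6* (92.7 and 87.5 FPKM).

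The remaining Slco rows outside the member list were as low. *Slco5a1* had 4 to 9 reads per male library and 0 to 6 per female library. *Slco6b1*, *Slco6c1* and both rows of *Slco6d1*, all on chromosome 9 and of a testis-linked branch of the family, were listed at 0 in every library. None of these 8 rows reached the mean of 0.1 FPKM set for the limma fit, so none was tested.

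*Slco2a1* was the one member that was higher in every female than in every male. The gene lies on the plus strand of chromosome 8 at 111495331 to 111577833. Males 1 to 5 had 7.74, 7.54, 9.26, 8.79 and 5.58 FPKM. Females 1 to 5 had 9.79, 10.9, 10.1, 10.3 and 10.4 FPKM. The 5 females lay within 1.11 times of each other, and the males within 1.66 times. Mean levels were 7.78 ± 1.42 and 10.3 ± 0.409 FPKM, a log2 difference of 0.42 with a standard error of 0.13. When every library was scaled to the same total FPKM, the ranges overlapped.

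*Slco2b1*, which takes up steroid sulfates and statins, lay lower in most females. Its position is 164623599 to 164671577 on the minus strand of chromosome 1. The male values were 11.9, 10.04, 10.3, 7.58 and 12.9 FPKM. The female values were 7.73, 8.24, 8.59, 4.74 and 8.002 FPKM. Male 4 was the lowest male and female 4 the lowest female, and male 4 alone made the groups overlap, since the other 4 males began at 10.04 FPKM and the females ended at 8.59 FPKM. The log2 difference was −0.50 with a standard error of 0.18.

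*Slco3a1*, a widely expressed carrier of prostaglandins and thyroxine, was the steadiest member over the 10 rats. It lies at 135790810 to 136073540 on the minus strand of chromosome 1. The males had 9.35, 7.01, 8.78, 7.27 and 8.76 FPKM. The females had 9.50, 8.34, 9.23, 6.37 and 8.32 FPKM. The female span enclosed the male one, and the highest value of all was 1.49 times the lowest. The log2 difference was 0.02 with a standard error of 0.13.

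*Slco4a1*, a carrier of thyroid hormone and prostaglandins found in many tissues, spread more among the females than among the males. The gene is on the plus strand of chromosome 3 at 175838994 to 175857983. Males 1 to 5 had 2.38, 3.18, 3.09, 5.28 and 3.54 FPKM. Females 1 to 5 had 4.93, 2.37, 1.82, 0.553 and 1.25 FPKM. Female 1 was above 4 of the 5 males and the other females were below all of them, and the highest female value was 8.91 times the lowest. The log2 difference was −0.92 with a standard error of 0.45. Female 4 held only 29 reads, and without that rat the difference was −0.545.

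Female 4 was also the lowest library for markers of stroma and macrophages. The 7 macrophage markers, none at 0, summed to 165 to 326 FPKM in males against 80.9 to 214 FPKM in females, the lowest being female 4. The 5 fibroblast markers, none at 0, summed to 231 to 313 FPKM in males against 68.9 to 227 FPKM in females, again with female 4 lowest. Among the fibroblast markers *Col3a1*, a fibrillar collagen, fell from 81.9 ± 13.1 to 39.5 ± 14.9 FPKM (limma adjusted p = 0.0477). At an unadjusted limma p under 0.05 there were 4 of these 5. The means of *Lum* ran the other way, at 0.847 ± 0.184 and 1.02 ± 1.02 FPKM. None of the 7 macrophage markers passed, and 2 had an unadjusted limma p under 0.05, against 15.7% of all tested genes. The 6 endothelial markers found, of 7 fixed, summed to 164 to 209 FPKM in males against 158 to 228 FPKM in females. The part of these cell types in the values of *Slco2b1* and *Slco4a1* was not tested.

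*Slco4c1* divided the rats of each sex much as *Slco1a6* did. It lies at 104299277 to 104350308 on the minus strand of chromosome 9. The male values were 3.24, 5.27, 3.65, 8.68 and 8.59 FPKM. The female values were 8.11, 5.14, 4.25, 8.45 and 11.01 FPKM. Males 1 and 3 and females 2 and 3 were the low rats of their sex here too. The log2 difference between the sexes was 0.36 with a standard error of 0.33. It fell to 0.18 without male 1, to 0.22 without male 3 and to 0.20 without female 5.

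Over the 10 rats the log2 levels of *Slco1a6* and *Slco4c1* gave a Pearson r of 0.92 (permutation p = 0.00041, 0.0115 after Benjamini-Hochberg adjustment over the 28 member pairs) and a Spearman rho of 0.93 (permutation p = 0.00037, adjusted 0.0104). Without the 2 rats farthest from the median of *Slco1a6* r was 0.90, and after centering each sex on its own mean it was 0.97. The pair was singled out after the values had been seen, from all 28 pairs, so its p-values are a description and no independent evidence. The permutations also treated the 10 rats as exchangeable, although they were littermates. The FPKM ratio of *Slco1a6* to *Slco4c1* was 9.05 to 17.3 in males and 9.12 to 13.4 in females, against a 4.55-fold span of *Slco1a6* itself. The rats came from 2 litters, and the part of litter in this pattern was not tested. *Slco1a1* and *Slco2a1* also ran opposite to each other over the 10 rats, but their values fell into separate clusters by sex, so no pooled r is given for them. Of the straight-tubule markers, *Slc7a13* was also low in males 1 and 3 and females 2 and 3. *Acsm3* was not, at 67.0 and 92.7 FPKM in males 1 and 3 and 71.3 and 49.3 FPKM in males 4 and 5. *Slc5a1* was lowest of its sex in male 1, at 10.5 FPKM, and in females 2 and 3, at 18.3 and 18.7 FPKM, while male 3, at 14.2 FPKM, lay above males 2 and 5. *Kap* was lowest of the males in males 1 and 3, at 953 and 804 FPKM, and lowest of the females in females 1 and 3, at 120.2 and 183 FPKM. The part of this segment in the pattern of *Slco1a6* and *Slco4c1* was not tested.

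**Figure D5:**
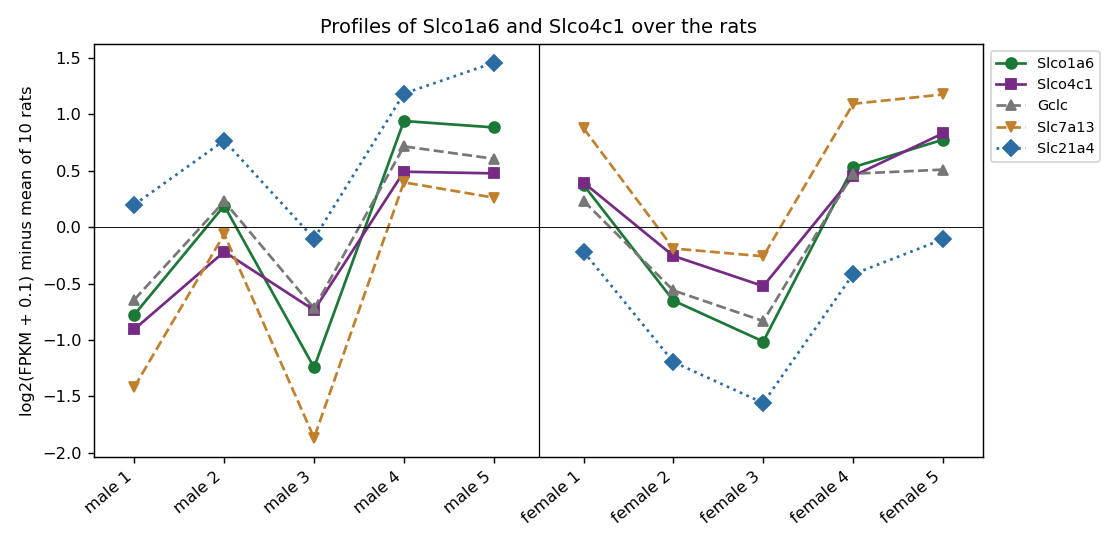
Level of *Slco1a6*, *Slco4c1*, *Gclc*, *Slc7a13* and *Slc21a4* in each rat (horizontal axis) as log2(FPKM + 0.1) minus the gene's mean over the 10 rats, with males left and females right of the vertical line. All 5 genes are lower in males 1 and 3 than in males 4 and 5 and lower in females 2 and 3 than in the other females, and *Slc21a4* is shifted down in females.

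Likeness between genes was measured as the root mean square distance of their centered log2 profiles over the 10 libraries, against 17630 other genes. Nearest to *Slco1a1*, whose own spread on this measure was 3.88, were *Slc22a22* at 0.43, *Eif2s3y* at 0.50 and *Ddx3y* at 0.51. *Slc22a22*, an organic anion carrier of the Slc22 family, stood at 22.5 ± 4.37 FPKM among males against 0.0681 ± 0.0584 FPKM among females, and the other 2 are Y-linked genes. Nearest to *Slco2a1*, with an own spread of 0.28, were *Mcur1* at 0.06, *Fndc3b* at 0.10 and *Fads3* at 0.11. *Mcur1*, a regulator of mitochondrial calcium uptake, was at 20.1 ± 4.17 FPKM in males against 26.7 ± 1.69 FPKM in females.

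The same distance was taken for the other members after the data had been seen. *Gclc*, the catalytic subunit of the enzyme that limits glutathione synthesis, was nearest to *Slco1a6* at 0.24 against an own spread of 0.79, and *Slco4c1* ranked 11th. *Gclc* measured 490, 895, 464, 1255 and 1163 FPKM in males 1 to 5 and 898, 518, 430, 1061 and 1088 FPKM in females 1 to 5, which is the rat order of *Slco1a6* but for male 3 and female 3, which changed places. *Slco4c1*, with an own spread of 0.57, had *Mep1b* at 0.18 and *Gnat1* at 0.19 among its nearest, and *Gclm*, the second subunit of that enzyme, at 0.20. Nearest to *Slco4a1*, with an own spread of 0.87, were *Slc34a2* at 0.25, *Lif* at 0.31 and *Tmc5* at 0.33. *Slco2b1* had *Tmem173*, *Abca8a* and *Klhl6* nearest at 0.12 to 0.13, against an own spread of 0.38.

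Genes that share cargo with the OATPs were followed as 4 lists, and their membrane partners and transcriptional regulators as another. Of the 87 tested genes in all, 11, or 12.6%, passed the limma test at an adjusted p of 0.05, 5 higher and 6 lower in females, against 2.4% of all tested genes. The lists were drawn up with earlier results of these data known, so the difference in share is not independent evidence. Of 18 tested carriers for organic anion entry and exit, 2 were higher and 1 was lower in females. *Slc22a7*, which carries anions such as cyclic GMP and estrone sulfate, rose from 2.47 ± 1.22 to 26.9 ± 11.8 FPKM (adjusted p = 0.000855). *Slc22a13*, a urate and nicotinate carrier, rose from 1.42 ± 1.21 to 22.3 ± 9.95 FPKM (adjusted p = 0.00336). *Slc51b*, the beta subunit of the basolateral bile acid and steroid exporter, fell from 78.3 ± 28.3 to 14.6 ± 6.75 FPKM (adjusted p = 0.00163). The alpha subunit *Slc51a* did not share this fall, at 33.1 ± 14.2 FPKM in males against 53.1 ± 14.2 FPKM in females (limma adjusted p = 0.233). The most abundant carriers of the list did not pass, *Slc22a8* being at 248.9 ± 79.3 and 336 ± 76.9 FPKM, *Slc22a6* at 294 ± 55.5 and 205 ± 46.7 FPKM, and *Slc22a12* at 196 ± 40.3 and 172 ± 62.4 FPKM in males and females.

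Among 18 tested genes of prostaglandin synthesis and clearance, the cargo of *Slco2a1*, 3 were lower and 0 higher in females, and 8 had an unadjusted limma p under 0.05, against 15.7% of all tested genes. *Hpgd*, the enzyme that inactivates prostaglandins after uptake, fell from 14.7 ± 1.89 to 6.20 ± 1.56 FPKM (limma adjusted p = 0.0022). *Ptgds*, the prostaglandin D synthase, fell from 54.2 ± 15.8 to 16.6 ± 3.61 FPKM (limma adjusted p = 0.00151). *Ptger3*, a prostaglandin E2 receptor, fell from 34.9 ± 4.43 to 22.9 ± 4.12 FPKM (limma adjusted p = 0.0435). *Ptges3*, *Ptgr2* and *Ptges2* had the highest means over the 10 rats among those that did not pass, at 83.5, 33.7 and 21.6 FPKM in males and 100.3, 36.6 and 24.9 FPKM in females.

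Of 9 tested genes of thyroid hormone transport and deiodination, 1 was higher in females and 0 lower, and 2 had an unadjusted limma p under 0.05, the share over all tested genes being 15.7%. The gene that passed was *Ttr*, the thyroxine-binding transthyretin, listed at 0 in all 5 males and at 0.643 ± 0.396 FPKM in females (limma adjusted p = 0.0142). It cleared the filter on mean level through the females alone, which ranged from 0.085 to 1.08 FPKM. Its lowest female value lay near the lower edge of measurement. *Dio1*, the deiodinase of proximal tubule, was at 164 ± 15.6 and 118 ± 34.7 FPKM, *Crym* at 150 ± 22.7 and 157 ± 55.0 FPKM, and *Slc7a8* at 35.6 ± 13.7 and 36.2 ± 10.4 FPKM. Of 10 tested genes of steroid conjugation, 6 had an unadjusted limma p under 0.05, against the same 15.7%, and 1 was higher and 0 lower after adjustment. *Sult2b1*, a steroid sulfotransferase, rose from 7.71 ± 1.22 to 15.6 ± 4.36 FPKM (limma adjusted p = 0.0162). *Sult1b1*, *Papss1* and *Arsa* followed the list's level order at 49.4, 33.7 and 19.6 FPKM in males and 33.2, 29.0 and 21.8 FPKM in females, and did not pass.

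Of 32 tested membrane partners and transcriptional regulators, 1 was higher and 2 were lower in females, or 9.38%, against 2.4% of all tested genes. At an unadjusted limma p under 0.05 there were 6 of the 32, against 15.7% of all tested genes. *Prlr*, the prolactin receptor, fell from 19.6 ± 9.70 to 4.59 ± 1.20 FPKM (limma adjusted p = 0.00369). *Esr1*, the estrogen receptor alpha, fell from 5.50 ± 0.826 to 2.40 ± 0.791 FPKM (limma adjusted p = 0.00793). *Ahr*, the dioxin receptor, rose from 5.66 ± 0.424 to 7.68 ± 0.835 FPKM (limma adjusted p = 0.0499). *Slc9a3r1* and *Pdzk1*, scaffold proteins that hold transporters in the brush border, were at 357 ± 40.7 and 324 ± 50.2 FPKM in males and 413 ± 69.6 and 334 ± 103 FPKM in females, and *Hnf4a* was at 143 ± 13.2 and 141 ± 31.4 FPKM.

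Around the members, 5 of 60 tested genes within 500000 bases, or 8.33%, passed the limma test at an adjusted p of 0.05, against 2.4% of all tested genes. None of the 7, 3 and 8 tested neighbors of *Slco1a1*, *Slco1a4* and *Slco1a6* was among them, these sets overlapping each other, nor was the single one of *Slco4c1*. Counted once each, the Slco1 neighbors came to 9 tested genes, *Slc21a4* included, and 5 of them had an unadjusted limma p under 0.05, against 2775 of all 17631 genes, or 15.7%. Among these, a 7SK row lies inside *Slc21a4* on the same strand, so the 9 do not stand for 9 separate loci. That row was at 0.658 ± 0.306 FPKM in males against 0.272 ± 0.477 FPKM in females. Near *Slco2a1*, *Cep63*, a centrosomal protein gene, rose from 9.07 ± 1.15 to 19.8 ± 4.51 FPKM (adjusted p = 0.00382), and *Bfsp2*, a lens filament gene, fell from 0.878 ± 0.471 to 0.0573 ± 0.0383 FPKM (adjusted p = 0.00797). Near *Slco4a1*, *Slc17a9*, the vesicular nucleotide transporter, rose from 2.52 ± 0.579 to 7.03 ± 1.43 FPKM (adjusted p = 0.00158). Near *Slco2b1*, *Dgat2*, a triglyceride synthesis enzyme, fell from 9.55 ± 0.674 to 6.98 ± 0.825 FPKM (adjusted p = 0.0359). Near *Slco3a1*, the noncoding AABR07004305.1 rose from 4.11 ± 1.10 to 7.43 ± 1.12 FPKM (adjusted p = 0.0458). The neighboring rows nearest to *Slco1a1* on each side were a small nucleolar RNA and a noncoding RNA, both listed at 0, as was the 7SK row nearest to *Slco1a6* on the side away from *Slc21a4*.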

How the data were processed

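RNA-seq libraries of polyadenylated RNA from 5 male and 5 female PCK rats were analysed. Per the labels and the study's methods, the authors trimmed reads with fastp, aligned them with HISAT2 2.0.5 to Rnor_6.0, counted them with featureCounts 1.5.0-p3 and deposited FPKM per gene. The labels also name StringTie 1.3.3b. Whether counting used strand is not given in the sources used here. All FPKM values were whole multiples of the worth of 1 read (tolerance 0.01), which gave back read numbers of 13912569 to 20285911 per library. Low values are limited by counting, with 3 reads as the limit for a count of 0, and intervals cover counting error only.

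The 17631 genes averaging 0.1 FPKM or more were fitted as log2(FPKM + 0.1) with limma 3.58.1 in R 4.3.3 (eBayes with trend), female minus male, with Benjamini-Hochberg adjustment over all of them. FPKM was not a count, so no count model was used except limma-voom on the recovered reads as an alternative. Groups came from the sample titles. Replicate numbers were not taken as pairs, since same-numbered deviations from the sex means correlated at −0.10 to 0.07. Whether same-numbered rats shared a litter is not known here. No library pair agreed within sampling noise, the lowest chi-square per degree of freedom being 9.61. Correlations used 100000 permutations in SciPy 1.17.1. Windows were aligned with Biopython 1.88. The fitting code was tested on simulated data.

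Members and gene lists were chosen with earlier results of these data known. Named were the members, every other Slco row, listed genes passing the test and up to 3 more by level, neighbors passing the test or nearest to a Slco1 member, the 3 nearest profiles of members with separate ranges, and Y-linked genes. *Slc21a4*, the nearest profiles of the other members, the correlations and the motifs were added after values were seen. Cell type marker lists were fixed for proximal tubule, straight proximal tubule, thick ascending limb, distal convoluted tubule, principal and intercalated cells, podocytes, endothelium, fibroblasts, macrophages, leukocytes, hepatocytes, adrenal cortex and adipocytes. Of their 66 tested genes 8, or 12.1%, passed, against 2.4% of all tested genes. Promoter windows came from a RefSeq table of build GRCr8, while a whole genome sequence and protein sequences were not used here. One gene among the nearest profiles of *Slco4c1* is not reported here.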

Additional observations from a re-analysis of the deposited data

Results flagged for a closer look

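Among 16 groups of 5 values, 1 per member and sex, 2 held a rat set apart from the rest of its group by Dixon's ratio of gap to range (critical value 0.71), and chance flags about 1 in 20 such groups. *Slco2b1* in female 4 was low at 4.74 FPKM, with a ratio of 0.776 and 363 reads. The same rat was lowest for the macrophage and fibroblast marker sums, at 80.9 and 68.9 FPKM. *Slco1a4* in female 5 was high at 0.234 FPKM, with a ratio of 0.773 and only 14 reads.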

How the results depend on the processing

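*Slco1a1* was the single member past the adjusted p of 0.05, with or without the log2 threshold, under all 20 alternatives, and its log2 difference stayed between −7.92 and −7.54 when single rats were left out. It was −4.99 and −9.30 with pseudocounts of 1 and 0.01 and −9.15 with limma-voom, since females held few reads. Members with separate ranges numbered 1 after scaling to equal total FPKM, which moved the median of all genes from −0.01 to −0.12, and 2 to 3 without single rats, *Slco2b1* joining without male 4 and *Slco4a1* without female 1. The differences of *Slco1a6* (−0.31 to 0.26) and *Slco3a1* (−0.10 to 0.11) took either sign over the alternatives, and those of the other members kept theirs, within −1.28 to −0.545 for *Slco4a1*, 0.18 to 0.53 for *Slco4c1* and −0.39 to −0.07 for *Slco1a4*. Without the filter on low values, limma tested 3 other Slco rows, of which 0 passed and 2 had an unadjusted p under 0.05. Neighboring genes passing, 5 in the report's fit, numbered 3 with quantile normalization, 7 with limma-voom, 4 to 6 under the other settings and 3 to 5 without single rats. Listed pathway genes numbered 8 to 14, against 11. Marker genes passing, 8 in the report's fit, numbered 4 without a filter, 3 with equal total FPKM, 2 without the eBayes trend, 2 with the replicate block and 2 to 11 without single rats. The cause of these shifts was not tested. With the replicate number as a block, calls over all genes went from 424 to 231 and the member count remained 1, while *Slc21a4* passed at a limma adjusted p of 0.0316, as it did with limma-voom at 0.0482. The block lowered the standard errors of *Slco1a1*, *Slco1a6*, *Slco2b1*, *Slco3a1* and *Slco4c1*, that of *Slco1a6* from 0.48 to 0.27. It raised those of *Slco1a4*, *Slco2a1* and *Slco4a1*, the last from 0.45 to 0.52. Rat 3 alone correlated best with its own number, and whether the numbers follow litter or another pairing was not tested. Depth limits *Slco1a4*, with 8 to 26 reads a library, and the *Slco1a1* values of females.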
